A study of Mus musculus with 4 samples.

Results

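The replication-dependent core histone genes and the H1 linker histone genes of the mouse were followed in single-cell RNA-seq of sorted bone marrow. Members were selected on their symbol, of the H1f, H2ac, H2bc, H3c or H4c series, and on a measured total of at least 50 UMIs (unique molecular identifiers, one per captured transcript molecule) over the 4 matrices. Of 55357 genes in the files, 70 had such a symbol and 59 passed, with 7 H1f, 15 H2ac, 15 H2bc, 10 H3c and 12 H4c genes. The 59 members held 1252784 UMIs, 0.316% of all UMIs. The UMI minimum left out 11 genes, of which 6 had no UMI; H3c10 with 38 UMIs was the nearest below it, and H2ac12 with 117 and H2ac23 with 141 were the nearest above. The threshold used total UMIs only, so differences between cells and between groups were not part of the choice.

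The cells were LSK bone marrow cells, a sort for lineage-negative, Sca-1-positive, Kit-positive cells that contains stem cells and early progenitors, taken from wild-type mice. The Yoda1 group, 2 libraries, came from mice given Yoda1, a small-molecule agonist of the mechanosensitive channel PIEZO1, by intraperitoneal injection for 2 weeks. The Control group, also 2 libraries, came from wild-type mice given a vehicle that the labels do not name. The age of the mice is not given. The labels do not say whether the libraries of a group came from separate mice or how many mice were pooled, and p-values cover only differences from library to library, possibly technical ones. Both a Singleron microwell chip and a 10x Genomics kit are mentioned in the labels, so the capture platform was not settled.

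Each nucleosome wraps DNA around H2A, H2B, H3 and H4, and linker histone H1 binds where the DNA enters and leaves it. The replication-dependent genes lie in clusters, lack introns, and are transcribed mainly in S phase. Their mRNAs classically end just after a short stem-loop bound by stem-loop binding protein in place of a poly(A) tail, which limits their capture by the oligo(dT) priming that most droplet and microwell methods use. H1f0 and H1f10 are linker histone genes that are transcribed outside S phase and carry poly(A) tails, and H1f1 to H1f5 encode the somatic replication-dependent linker histones.

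On GRCm38, 49 members lay on chromosome 13, 8 on chromosome 3, H1f10 on chromosome 6 and H1f0 on chromosome 15. Many are near-identical copies. In GENCODE M21 the 59 members encode 27 distinct proteins: the 12 H4c genes share 1 protein, 9 of the 15 H2ac genes share another, and 7 of the 10 H3c genes another. For 44 members the closest copy had at least 95% identical coding sequence, while the closest copies among the H1f genes were 51.7% to 84.0% identical. How reads that match several genes were counted is not given, so values of single core histone copies are uncertain. Whether family sums are affected too was not tested. The median share of 90-base windows also found in another gene was 66.5% in H2ac, 44.4% in H2bc, 45.5% in H3c and 27.1% in H4c. In H1f it was 0%, with H1f4 highest at 26.2%. The 2 extreme copies were H2ac24 (chr13:21833026-21833507, minus strand) and H2ac23, which have identical coding sequences and share 363 windows of 90 bases, 92.4% of those of H2ac24. H2ac24 held 589965 UMIs and H2ac23 held 141.

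The stem-loop is shown because it marks which annotated models end where the classical histone mRNA ends. Its core, searched by the histone stem-loop consensus on the transcript strand only, occurred in the models of 36 of 59 members, against 0.0938% of all 55450 annotated genes. The commonest form, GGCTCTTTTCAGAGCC, was in 22 members, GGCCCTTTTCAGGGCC in 6, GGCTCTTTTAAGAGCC in 5, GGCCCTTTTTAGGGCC in 2 and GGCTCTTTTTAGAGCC in 1. Each line gives the 30 bases that end with the element, in the GENCODE M21 transcript (GRCm38), 5′ to 3′, with the element in capitals.
H2ac24: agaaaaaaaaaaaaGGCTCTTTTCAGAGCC
H2ac8: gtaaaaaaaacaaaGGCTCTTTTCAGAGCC
H2ac4: ttaaccaaaacaaaGGCTCTTTTCAGAGCC
H3c3: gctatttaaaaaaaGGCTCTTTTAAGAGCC
H4c9: caatgctacttaaaGGCCCTTTTTAGGGCC
H4c4: acccaaaaaccaaaGGCCCTTTTCAGGGCC
H1f4: cccaacaacccaaaGGCTCTTTTCAGAGCC
H2ac6: acttcaaacccaaaGGCTCTTTTCAGAGCC
The annotated transcript went on for 3 bases after the element in H2ac24, 11 in H2ac4, 74 in H3c3, 151 in H2ac8, 330 in H4c9, 770 in H4c4, 1153 in H1f4 and 2010 in H2ac6. Across members, 20 models ended within 100 bases of the element and held 52.9% of member UMIs, 16 went further and held 27.4%, and 23 models, H1f5, H1f0, H1f10 and H2bc4 among them, held no element and 19.7% of the UMIs.

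The stretch before the element of H2ac24 is also shown because it is rich in A, and runs of A inside a transcript can be primed by oligo(dT). The longest run of A is in capitals.
H2ac24: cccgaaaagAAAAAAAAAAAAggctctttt
H2bc6: gagacctggAAAAAAAAAAAtcagttccta
H2ac6: ctaggagAAAAAAAAAAAAAAAgttctatg
The run had 12 bases in H2ac24, 11 in H2bc6 and 15 in H2ac6. Such runs are common, with at least 10 A in a row in 20.8% of 21901 coding genes, and where reads began was not examined. The letters of H2ac23 around its run are the same as those of H2ac24.

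After filtering, the libraries held 9122 and 9756 cells in Yoda1 1 and Yoda1 2 and 7620 and 7822 cells in Control 1 and Control 2, with 89058521 to 110493533 UMIs each. Median UMIs per cell were lowest in Yoda1 2, at 7311, against 10183.5 in Yoda1 1 and 11220 and 9410.5 in the Controls. Kit was at 98.4 to 156 CPM (UMIs of a gene scaled to the total of the library) and Ly6a, which encodes Sca-1, at 97.9 to 262 CPM, while marker lists of sorted-out cells were also present, at 57.2 to 212 CPM for neutrophils and 30.3 to 127 CPM for erythroid cells. Yoda1 2 stood apart in its makeup: 30.7% of its cells fell in the Stem gate described below, against 9.23% in Yoda1 1, and 5.49% and 6.72% in Control 1 and Control 2. It also held 2.62% Granulocyte-monocyte gate cells, against 20.5% in Yoda1 1 and 25.9% and 18.8% in the Controls. Between 14 and 30 barcodes were shared by any pair of libraries. Pooled values of Yoda1 2 are therefore given beside values within gates and beside values without it.

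The histone genes together made up 4291 CPM in Yoda1 1 and 2661 CPM in Yoda1 2, against 3097 CPM in Control 1 and 2414 CPM in Control 2. Means were 3476 ± 1153 CPM in Yoda1 and 2756 ± 482 CPM in Control libraries (SD, n = 2 each), a log2 ratio of 0.34, and the groups overlapped. Leaving out Yoda1 1 turned this ratio to -0.05, and leaving out Yoda1 2 gave 0.64. H2ac24 alone supplied 47.1% of member UMIs. Without it the sums were 2140 and 1583 CPM in Yoda1 1 and Yoda1 2, against 1205 and 1756 CPM in Control 1 and Control 2.

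Among the linker histone genes, H1f5 (chr13:21779883-21780625, minus strand) was at 400.4 and 323 CPM in Yoda1 1 and Yoda1 2, against 207 and 397 CPM in Control 1 and Control 2. H1f4 (chr13:23620629-23622558, minus strand) was at 177 and 148 CPM in the Yoda1 libraries, against 91.2 and 181 CPM in the Controls. Both genes were lowest in Control 1, and the other 3 libraries lay close together. H1f10 (chr6:87980421-87981637, minus strand) was at 69.0 and 118 CPM in the Yoda1 libraries, against 85.9 and 109 CPM in the Controls. H1f0 (chr15:79028450-79030504, plus strand) was at 41.5 and 64.7 CPM in the Yoda1 libraries, against 38.2 and 63.9 CPM in the Controls. These replication-independent linker genes paired library 1 of one group with library 1 of the other, and library 2 with library 2. The remaining linker genes, H1f2, H1f1 and H1f3, lay between 30.2 and 68.6 CPM in the 4 libraries, and each was highest in Control 2. H1f10 and H1f4 overlap other annotated models, Gm5577 and H2bc6, and whether counting used strand is not given in the sources used here.

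Of the H2A genes, H2ac24 was at 2151 and 1078 CPM in Yoda1 1 and Yoda1 2, against 1891 and 659 CPM in Control 1 and Control 2. H2ac8 (chr13:23570517-23571220, minus strand) was at 599 and 349.6 CPM in the Yoda1 libraries, against 273 and 298 CPM in the Controls, and its groups did not overlap. H2ac4 (chr13:23751126-23751598, plus strand) was at 49.9 and 22.8 CPM in the Yoda1 libraries, against 19.1 and 19.96 CPM in the Controls, also without overlap. H2ac20 was at 48.4 and 29.7 CPM in the Yoda1 libraries, against 22.4 and 33.5 CPM in the Controls. H2ac6 (chr13:23681467-23683948, minus strand) was at 42.9 and 18.8 CPM in the Yoda1 libraries, against 28.1 and 32.3 CPM in the Controls. H2ac18 was at 16.8 and 8.35 CPM in the Yoda1 libraries, against 8.90 and 8.02 CPM in the Controls. Each of these 6 genes was highest in Yoda1 1. Divided by the length of the longest annotated transcript, the mean level over libraries was 2997 CPM per kilobase for H2ac24, 540 for H2ac8, 447 for H1f5, 84.7 for H4c9 and 78.4 for H1f10. Tag-based counts need not scale with transcript length, so this order is approximate.

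Among H2B genes, H2bc4 (chr13:23684199-23692908, plus strand) was at 46.2 and 48.9 CPM in Yoda1 1 and Yoda1 2, against 39.4 and 69.5 CPM in Control 1 and Control 2. H2bc11 was at 23.7 and 11.2 CPM in the Yoda1 libraries, against 13.2 and 15.1 CPM in the Controls. H2bc3 was at 17.8 and 8.79 CPM in the Yoda1 libraries, against 8.81 and 8.93 CPM in the Controls, so that only Yoda1 1 stood apart for this gene.

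Of the H3 genes, H3c6 was at 37.0 and 19.6 CPM in Yoda1 1 and Yoda1 2, against 18.9 and 26.9 CPM in Control 1 and Control 2. H3c3 was at 31.8 and 17.5 CPM in the Yoda1 libraries, against 13.4 and 20.4 CPM in the Controls. H3c4 (chr13:23575763-23577011, plus strand) was at 19.6 and 12.8 CPM in the Yoda1 libraries, against 21.04 and 19.5 CPM in the Controls. Of these genes, H3c4 alone was highest in Control 1. H3c7 was at 21.4 and 9.63 CPM in the Yoda1 libraries, against 7.68 and 9.20 CPM in the Controls. H3c1 was at 12.5 and 8.61 CPM in the Yoda1 libraries, against 9.16 and 11.99 CPM in the Controls. The H3c7 groups did not overlap, although Yoda1 2 exceeded Control 2 by little.

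Of the H4 genes, which all encode the same protein, H4c4 (chr13:23581598-23582735, plus strand) was at 89.8 and 65.5 CPM in Yoda1 1 and Yoda1 2, against 40.9 and 64.8 CPM in Control 1 and Control 2. H4c9 was at 63.6 and 58.6 CPM in the Yoda1 libraries, against 56.7 and 67.4 CPM in the Controls. H4c8 was at 33.8 and 16.1 CPM in the Yoda1 libraries, against 15.3 and 15.8 CPM in the Controls. The other 35 members, all of them core histone genes, had means under 10 CPM over the 4 libraries.

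**Figure D1:**
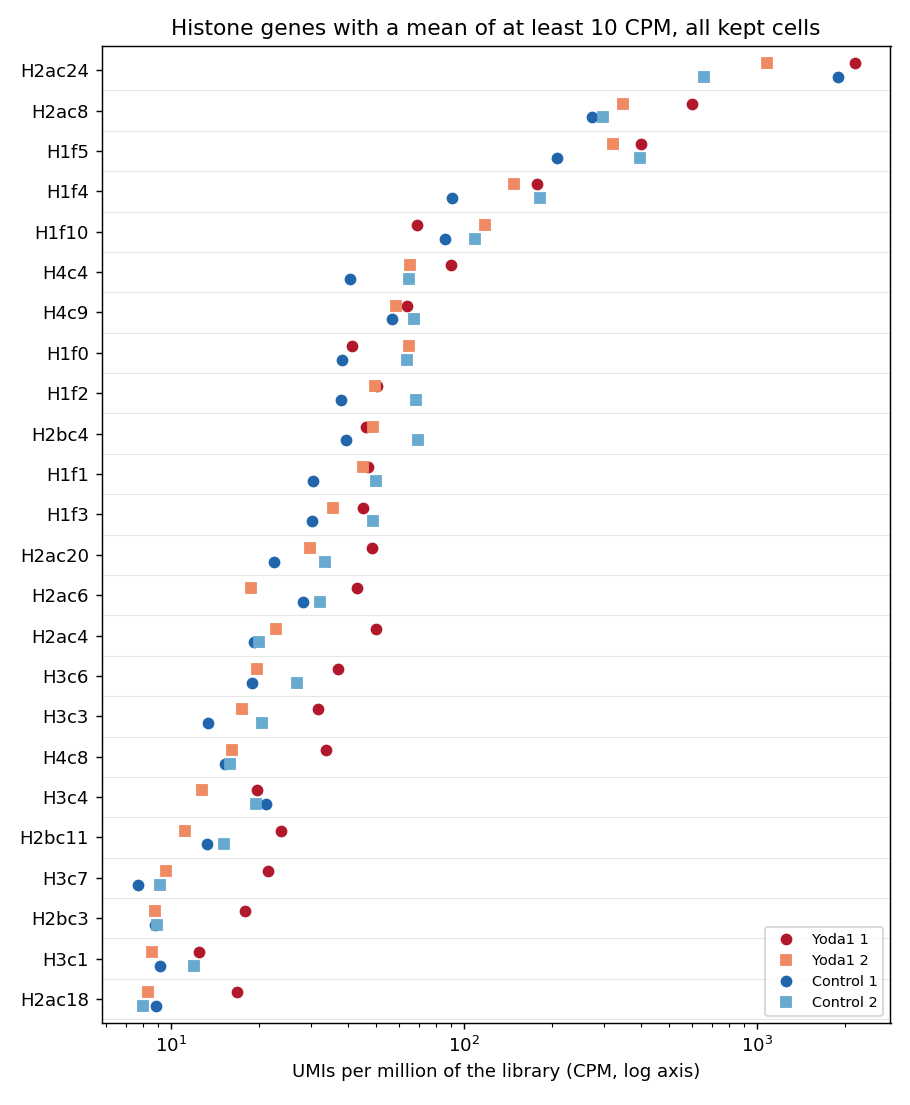
CPM on a log axis for the 24 members with a mean of at least 10 CPM, 1 row per gene and 1 point per library. Yoda1 1 is the rightmost point for most core histone genes, whereas H1f1, H1f2 and H1f3 are highest in Control 2 and H2ac24 is high in library 1 of both groups.

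Whether Yoda1 changed histone transcript levels in the whole sort was asked by edgeR's quasi-likelihood test on counts summed over kept cells of each library. No member and no other gene passed, with 0 of 18182 genes called, so that the background was 0%. No member had an unadjusted p under 0.05, against 309 of all genes. DESeq2 called 5 genes, 0.0275% of those tested and none of them a member. It put 3 members under an unadjusted p of 0.05, against 397 of all genes, and limma called 0 genes. The smallest member p was that of H2ac4, with a log2 fold change of 0.89 ± 0.40 (SE), an unadjusted p of 0.0608 and an edgeR adjusted p of 0.99994. H2ac8 had 0.72 ± 0.33, H3c7 0.89 ± 0.42, H4c4 0.54 ± 0.29 and H2ac24 0.31 ± 0.58 on the same scale. Estimates were above 0 for 46 of 59 members, against 50.9% of all genes, and their median was 0.25, against 0.005 over all genes. By family the estimates above 0 were 5 of 7 H1f genes, 14 of 15 H2ac, 12 of 15 H2bc, 6 of 10 H3c and 9 of 12 H4c, with medians of 0.01, 0.45, 0.25, 0.18 and 0.23.

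These estimates rested largely on Yoda1 1. It was the highest library for 41 of 59 members, against 10.9% of all genes, whereas both Yoda1 libraries lay above both Controls for 8 members, against 9.4% of all genes. Only H3c15 had both Yoda1 libraries below both Controls, against 9.95% of all genes. The 8 were H2ac4, H2ac8, H2ac23, H3c2, H3c7, H4c2, H4c4 and H4c8. Yoda1 2 lay below both Controls for 24 members, against 23.2% of all genes. Without Yoda1 2, 11 members passed, all higher in Yoda1 1, at log2 0.82 to 1.42, against 0.669% of genes called higher. Without Yoda1 1, H2ac6 and H3c4 passed, both lower in Yoda1 2, at -0.85 and -0.83, against 2.34% of genes called lower. In each of these fits the remaining Yoda1 library is assumed to vary as the Controls do. The direction of the whole-sort difference therefore depended on which Yoda1 library was kept.

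H2ac24 did not follow the other members across libraries. Its level in Control 1 was 2.87 times that in Control 2, whereas the median of that ratio over the other 58 members was 0.791, with 13 of them above 1. In the Yoda1 group, the ratio of library 1 to library 2 was 2.00 for H2ac24, with a median of 1.75 over the other members. The Control ratio of H2ac24 was 2.64 to 3.45 within the lineage gates and 2.37 to 3.33 within the Mki67 and Pcna classes described below. H2ac24 thus supplied 50.1% and 40.5% of member UMIs in Yoda1 1 and Yoda1 2, against 61.1% and 27.3% in Control 1 and Control 2. Sums are given with and without it.

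**Figure D2:**
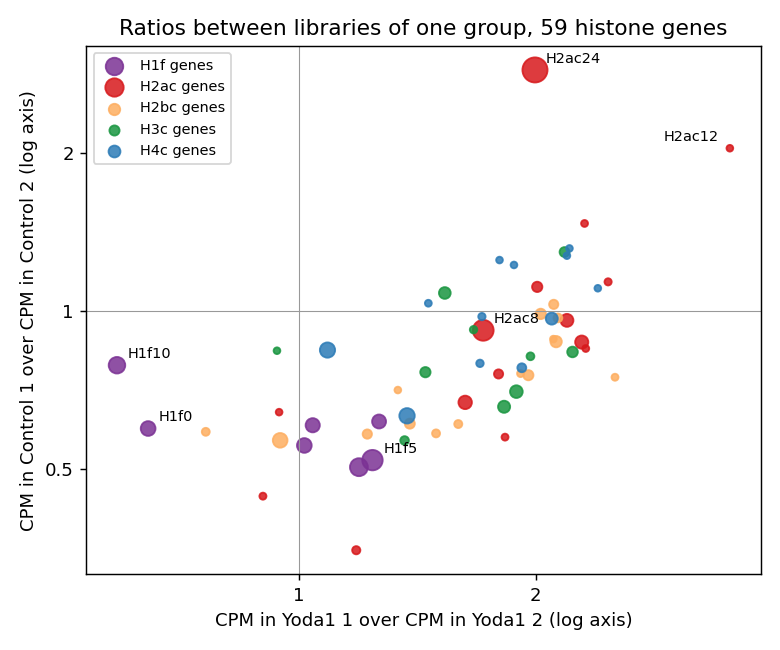
Ratio of CPM in Yoda1 1 to Yoda1 2 (x, log axis) against the ratio of Control 1 to Control 2 (y, log axis) for the 59 members, coloured by family, with larger points for higher mean CPM. Most members lie right of 1 and below 1 on the y axis, while H2ac24 lies at 2.00 and 2.87 and H2ac12, the member with the fewest UMIs, at 3.53 and 2.04.

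Per cell, members made up a median of 0.139% of UMIs in Yoda1 1 and 0.0655% in Yoda1 2, against 0.114% in Control 1 and 0.0989% in Control 2. The Controls lay between the Yoda1 libraries, and permuting the 4 library labels in all 6 ways, an exact test that cannot give a two-sided p under 0.333, gave p = 1. The distribution had a long upper tail. The 90th percentile was 1.02% and 0.679% in Yoda1 1 and Yoda1 2, against 0.724% and 0.583% in Control 1 and Control 2 (exact permutation p = 0.667). After thinning each cell to 3000 UMIs, which left out 154 and 446 shallower cells in the Yoda1 libraries and 226 and 252 in the Controls, medians were 0.133% and 0.0667% in Yoda1 1 and Yoda1 2, against 0.133% and 0.1% in Control 1 and Control 2. Cells with no member UMI were 8.47% and 18.1% of thinned cells in the Yoda1 libraries and 11.6% and 11.9% in the Controls, and 1.66% and 6.39% against 2.86% and 2.71% before thinning.

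The upper tail followed Mki67, which encodes the proliferation antigen Ki-67 and peaks late in the cell cycle, much more than Pcna, which encodes the DNA polymerase clamp and peaks in early S phase. Without H2ac24, thinned cells with no Mki67 UMI held on average 3.55 and 2.21 histone UMIs in Yoda1 1 and Yoda1 2, against 2.23 and 3.18 in Control 1 and Control 2. Cells with at least 4 Mki67 UMIs held 15.5 and 13.2 in the Yoda1 libraries, against 8.23 and 13.95 in the Controls. Across Pcna the same quantity spanned less, with 5.42 and 3.44 at 0 UMIs in the Yoda1 libraries, against 3.32 and 4.603 in the Controls, and 7.89 and 6.23 at 4 or more UMIs in the Yoda1 libraries, against 3.69 and 6.38 in the Controls. Spearman's rho over the 8968 and 9310 thinned cells of Yoda1 1 and Yoda1 2 and the 7394 and 7570 of Control 1 and Control 2 was 0.464 and 0.501 against 0.423 and 0.457 with Mki67. With Pcna it was 0.0639 and 0.0774 in the Yoda1 libraries and 0.013 and 0.0311 in the Controls. Cells of a library share depth and free RNA, so these values are descriptions. H2ac24 followed the rest of the members, with rho of 0.728 and 0.612 in the Yoda1 libraries and 0.651 and 0.616 in the Controls.

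**Figure D3:**
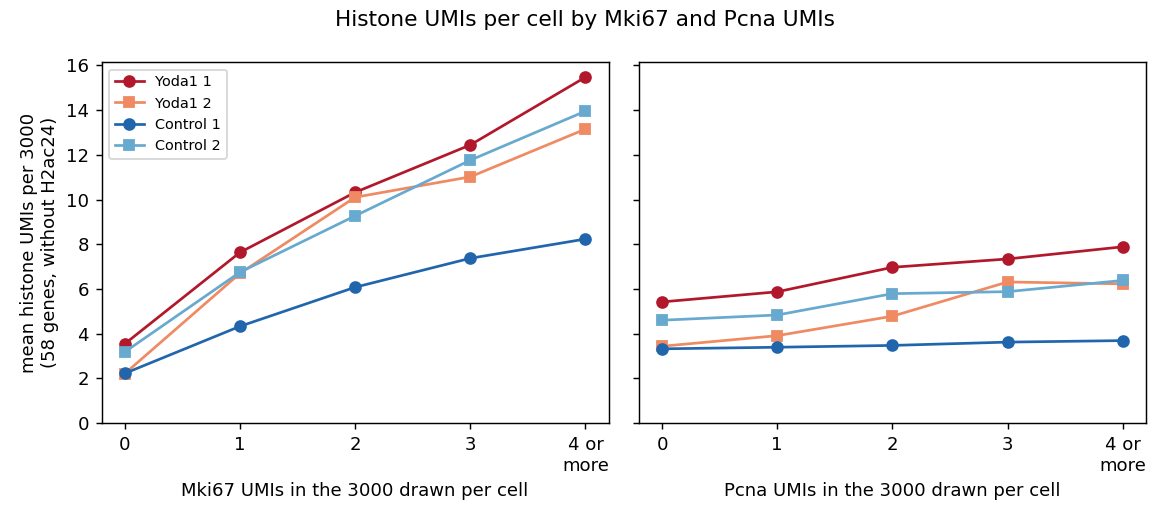
Mean histone UMIs per cell without H2ac24, in cells thinned to 3000 UMIs, against the number of Mki67 UMIs (left) and Pcna UMIs (right), 1 line per library. The lines climb with Mki67 in all 4 libraries, to 15.5 and 13.2 in Yoda1 1 and Yoda1 2 and 8.23 and 13.95 in Control 1 and Control 2 at 4 or more UMIs, and are flatter over Pcna.

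Cells were then put in 4 classes by whether their thinned UMIs held Pcna alone, both genes, Mki67 alone or neither. Cells with both were 16.1% and 12.4% of Yoda1 1 and Yoda1 2, against 16.4% and 12.9% of Control 1 and Control 2. Cells with Mki67 alone were 19.9% and 11.7% of the Yoda1 libraries, against 19.03% and 15.7% of the Controls, so that the share of Mki67-positive cells was lowest in Yoda1 2. Cells with neither, called double-negative here, may still express either gene below detection: in full UMIs they held 94.3 and 50.7 CPM of Mki67 in the Yoda1 libraries, against 114 and 75.2 CPM in the Controls. Summed member levels in cells with both genes were 6678 and 5594 CPM in Yoda1 1 and Yoda1 2, against 4806 and 4221 CPM in Control 1 and Control 2. In double-negative cells they were 2385 and 1111 CPM in the Yoda1 libraries, against 1873 and 1446 CPM in the Controls. In every library, cells with both genes held more than the double-negative cells.

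Nearly all histone genes rose with Mki67, and fewer with Pcna alone. In a fit with library as a block, 54 of 58 members tested were higher and 1 lower in cells with both genes than in double-negative cells, against a background of 48.1% of 15627 genes called and 24% called higher. In cells with Mki67 alone, 57 were higher and 1 lower, against 43.2% called and 21.6% called higher. In cells with Pcna alone, 12 were higher and 4 lower. In this fit the 27.6% of members was near the background of 22.2% called, 13% higher and 9.18% lower. With no low-count filter, which adds genes with few counts, it was above the background. There 23 of 59 members were higher and 4 lower, against 3665 of 30337 genes called, 2066 of them higher. With classes set from unthinned UMIs, 11 were higher and 12 lower of 57 tested, against 43.6% of 15185 genes called, 22.1% higher and 21.4% lower, so the balance of directions with Pcna alone depended on the classing. The count of 16 was 9 without Yoda1 1 and 9 without Control 2, and 21 without Yoda1 2 and 17 without Control 1. Median log2 differences over members were 1.54 for both genes, 1.50 for Mki67 alone and 0.28 for Pcna alone, against about 0 over all genes. From unthinned UMIs they were 2.30, 2.27 and 0.12.

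H2ac8 was at 974 and 799 CPM in cells with both genes in Yoda1 1 and Yoda1 2, and at 431 and 596 CPM in those of Control 1 and Control 2. In double-negative cells H2ac8 was at 294 and 113 CPM in the Yoda1 libraries, and at 150 and 142 CPM in the Controls. Each library showed the rise, at log2 2.05 ± 0.16 (SE, edgeR adjusted p 1.34e-07). H1f5 was at 682 and 802 CPM in cells with both genes in the Yoda1 libraries, and at 349 and 810.1 CPM in those of the Controls. In double-negative cells H1f5 was at 195 and 80.8 CPM in the Yoda1 libraries, and at 111 and 177 CPM in the Controls. The H1f5 difference was 2.24 ± 0.20 (adjusted p 3.60e-07), and H1f5 was also higher with Pcna alone, at 0.70 ± 0.19 (adjusted p 0.0164).

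On the log2 scale H1f1 was, like H1f5, at 2.24 with both genes, and at 1.58 with Mki67 alone. Values of the other linker genes in these classes were smaller, with H1f4 at 1.32 and 1.23, H1f3 at 1.33 and 1.27, H1f10 at 0.69 and 0.97, and H1f2 at 0.37 and 0.58. H1f0 was at 43.3 and 64.7 CPM in cells with both genes in Yoda1 1 and Yoda1 2, and at 41.4 and 63.3 CPM in those of Control 1 and Control 2. In double-negative cells H1f0 was at 36.9 and 65.1 CPM in the Yoda1 libraries, and at 33.6 and 67.5 CPM in the Controls. That difference, 0.13 ± 0.06, did not pass (adjusted p 0.0650), whereas H1f0 was higher with Mki67 alone, at 0.49, and lower with Pcna alone, at -0.32.

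H2ac24 was at 3426 and 2449 CPM in cells with both genes in Yoda1 1 and Yoda1 2, and at 3062 and 1292 CPM in those of Control 1 and Control 2. In double-negative cells H2ac24 was at 1148 and 339 CPM in the Yoda1 libraries, and at 1079 and 324 CPM in the Controls. The difference was 1.99 ± 0.17 (adjusted p 2.71e-07), close to that of H2ac8. Library 1 of each group held more H2ac24 than library 2 in the cells with both genes and in the double-negative cells. H2ac24 was detected in 87.2% and 80.9% of thinned cells with both genes in the Yoda1 libraries, against 87.3% and 78.0% in the Controls. In double-negative cells of the Stem gate, where proliferation is lowest, it was still detected in 41.9% and 23.2% in the Yoda1 libraries, against 40.6% and 22.2% in the Controls. No cell type here is known to lack H2A transcripts, and how much of that share came from free RNA was not tested.

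The core histone genes with the steepest differences were small ones. H3c2 (chr13:23752267-23752886, plus strand) was at 27.7 and 18.4 CPM in cells with both genes in the Yoda1 libraries, and at 12.2 and 11.3 CPM in those of the Controls. In double-negative cells it was at 6.75 and 1.75 CPM in the Yoda1 libraries, and at 3.50 and 2.26 CPM in the Controls. Its difference was 2.33 ± 0.17 on the log2 scale, H2ac4 had 2.31 ± 0.18 and H2ac13 2.36 ± 0.26. H4c4 differed by 1.52 ± 0.09 (adjusted p 1.28e-08), H2bc3 by 2.01 ± 0.14 and H3c3 by 2.11. By family, medians with both genes were 1.32 for H1f, 1.93 for H2ac, 1.68 for H2bc, 1.68 for H3c and 1.13 for H4c genes.

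H2bc4 went the other way. It was at 27.3 and 27.0 CPM in cells with both genes in Yoda1 1 and Yoda1 2, and at 25.9 and 34.3 CPM in those of Control 1 and Control 2. In double-negative cells it was at 64.2 and 67.6 CPM in the Yoda1 libraries, and at 54.7 and 99.8 CPM in the Controls. The difference was -1.26 ± 0.10 (adjusted p 1.03e-07), and H2bc4 was also lower with Mki67 alone, at -0.47, and with Pcna alone, at -0.74. Its human ortholog is known for polyadenylated transcripts in cells that do not divide. H1f2 and H2ac6 were lower with Pcna alone, both at -0.44, although higher in both Mki67-positive classes. H2bc21, which in mouse olfactory neurons is known for expression without replication, did not pass with both genes, at 0.26 ± 0.13, nor did H3c15, at 0.50.

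**Figure D4:**
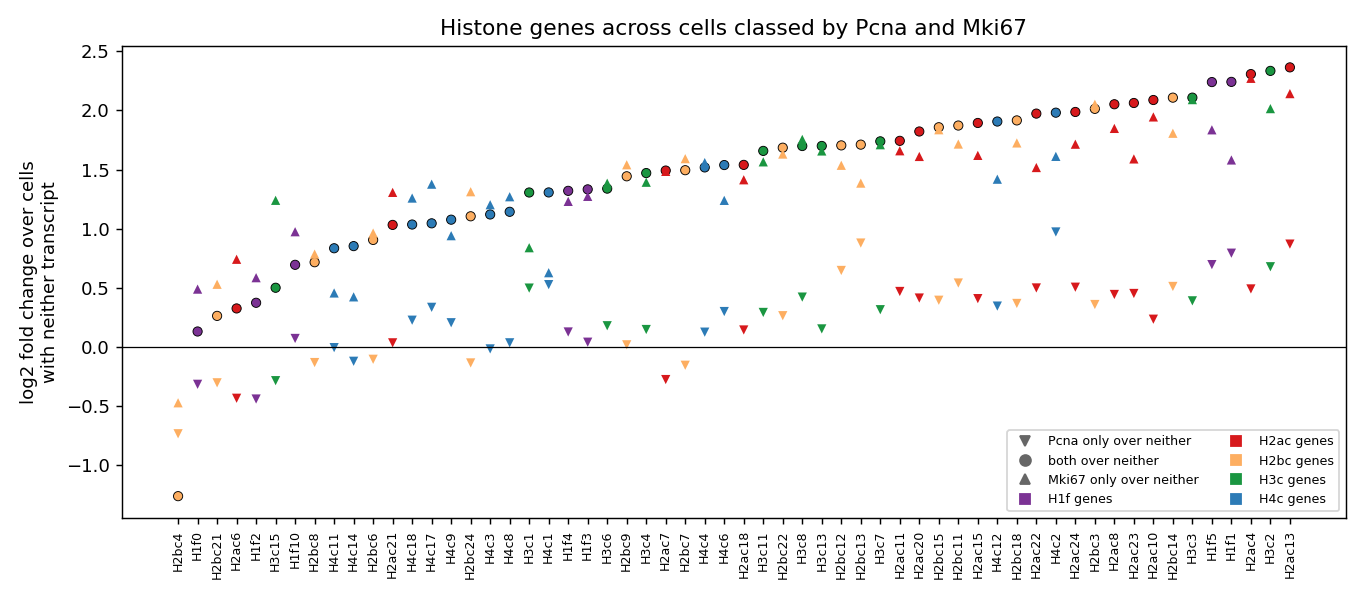
Log2 difference from double-negative cells for each of the 58 members tested, in cells with Pcna alone, both genes or Mki67 alone, ordered by the value with both genes and coloured by family. The points with Mki67 lie above 0 for all members except H2bc4, at -1.26 with both genes and -0.47 with Mki67 alone, while the points with Pcna alone have a median of 0.28.

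Scores for S-phase and G2/M genes gave a second way to class the cells. Against G1 cells, 47 members were higher and 5 lower in S-phase cells, and 55 higher and 1 lower in G2/M cells, against 59.8% and 63.3% of 16330 genes called. Median differences were 1.44 in S phase and 2.59 in G2/M. H1f5 was at 3.42 in S phase and 4.303 in G2/M, H2ac8 at 2.04 and 3.25, and H2ac24 at 2.68 and 3.83. H1f0 was lower in S phase, at -0.98 ± 0.07 (edgeR adjusted p 1.11e-07), and H2bc4 was lower in both, at -1.34 and -0.60. S-phase cells by score and cells with Pcna alone are different sets of cells.

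Members differed by how their annotated models end. The 20 members whose models end within 100 bases of the stem-loop had a median difference of 1.72 in cells with both genes and 2.03 in S-phase cells. The 16 whose models run on had medians of 1.22 and 0.53, and the 23 with no element in the model had 1.70 and 1.87. These are descriptions over genes that share sequence. The last set holds H1f0 and H2bc4 as well as H1f5. It also holds models that stop where the coding sequence ends, such as H2ac13, with 393 bases for a coding length of 390. For H4c12 these were 312 and 309. Lack of the element in such a model does not show that the gene lacks it.

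Genes that act on histones were called in part by the same classes. The shares over all genes are those given above, 48.1% called with both genes, 43.2% with Mki67 alone and 22.2% with Pcna alone. Of 15 histone mRNA processing genes, 11 were higher and 1 lower in cells with both genes, 7 higher and 1 lower with Mki67 alone, and 8 higher and 0 lower with Pcna alone. Of 15 histone chaperone genes, 12 were higher with both genes and 11 with Pcna alone, none lower in either, and 10 higher and 1 lower with Mki67 alone. All 27 S-phase genes of the list, Pcna itself included, were higher in both Pcna-positive classes, while with Mki67 alone 8 were higher and 5 lower. Of 20 G2/M genes, with Mki67 itself, 20 were higher with both genes and 20 with Mki67 alone, with 0 higher and 2 lower with Pcna alone. Of 10 variant histone genes outside the members, 8 were higher and 1 lower with both genes, 5 higher and 2 lower with Mki67 alone, and 2 higher and 3 lower with Pcna alone. Cenpa, which encodes the centromeric H3 variant, was at 0.74 with both genes, 1.64 with Mki67 alone and -0.54 with Pcna alone. Slbp, which encodes the stem-loop binding protein and is named for that role after its values were seen, was higher in both Pcna-positive classes, at 0.77 and 0.52, and was at 0.11 with Mki67 alone, which did not pass. In the whole-sort comparison of Yoda1 with Control, edgeR called 0 genes of each of these 5 lists.

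Gates were set from 6 markers per lineage, with a cell assigned where at least 2 markers were on and 1 lineage led. The gates kept were Stem, Lymphoid-primed, Granulocyte-monocyte, Megakaryocyte-erythroid, Monocyte-dendritic, and Mast, basophil and eosinophil, each with at least 50 cells in every library. B-cell and T- and NK-cell gates fell short. Members summed to 4839 and 3389 CPM in Megakaryocyte-erythroid gate cells of Yoda1 1 and Yoda1 2, against 3450.4 and 2860 CPM in those of Control 1 and Control 2. In Stem gate cells the sums were 3821 and 2393 CPM in the Yoda1 libraries, against 3073 and 2163 CPM in the Controls. Mast, basophil and eosinophil gate cells had the highest sum in each of the 4 libraries, at 5803 and 3636 CPM in the Yoda1 libraries, against 4307 and 2985 CPM in the Controls.

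Relative to Stem gate cells of the same library, 45 of 53 members tested were higher and none lower in Megakaryocyte-erythroid gate cells, against 67.3% of 13994 genes called and 31.5% called higher. In Mast, basophil and eosinophil gate cells 42 were higher and 1 lower, against 35.6% called. In Monocyte-dendritic gate cells 30 were higher and 5 lower, against 58.1% called. In Granulocyte-monocyte gate cells 24 were higher and 4 lower, which at 52.8% of members is below the 71.3% of genes called, with 32.8% called higher. In Lymphoid-primed gate cells 12 were higher and 2 lower, 26.4% of members against 29.6% called. Mki67 moved with the first of these, at log2 0.97 in Megakaryocyte-erythroid gate cells, whereas in Granulocyte-monocyte gate cells its level was at 0.15 and did not pass. Mki67-positive cells were 48.9% and 41.6% of the Megakaryocyte-erythroid gate in the Yoda1 libraries, against 44.8% and 39.0% in the Controls. In the Granulocyte-monocyte gate they were 37.3% and 38.0% in the Yoda1 libraries, against 33.7% and 32.0% in the Controls, above the Stem gate in every library. In the Stem gate they were 26.04% and 19.965% in the Yoda1 libraries, against 24.8% and 19.1% in the Controls. The Mast, basophil and eosinophil gate, with the highest member sums, held 34.5% and 31.0% in the Yoda1 libraries, against 34.6% and 25% in the Controls. Those shares were below the Megakaryocyte-erythroid gate in every library.

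The linker genes transcribed outside S phase were the clearest exceptions, but not the only ones. H1f2 and H2bc21 were also called lower in Granulocyte-monocyte and Monocyte-dendritic gate cells, and H2ac6 in Monocyte-dendritic gate cells. H1f0 was at 20.03 and 21.8 CPM in Granulocyte-monocyte gate cells of Yoda1 1 and Yoda1 2, and at 20.8 and 29.7 CPM in those of Control 1 and Control 2. In Stem gate cells H1f0 was at 78.5 and 85.8 CPM in the Yoda1 libraries, and at 72.3 and 126 CPM in the Controls. The ranges did not overlap, and the difference was -1.56 ± 0.09 (edgeR adjusted p 3.5e-13). H1f10 was at 39.8 and 47.6 CPM in Granulocyte-monocyte gate cells of the Yoda1 libraries, and at 62.3 and 70.5 CPM in those of the Controls. In Stem gate cells H1f10 was at 121 and 149 CPM in the Yoda1 libraries, and at 147 and 179 CPM in the Controls. H1f10 was lower than in Stem gate cells in 4 of the 5 other gates, at -1.24 in Monocyte-dendritic, -1.06 in Granulocyte-monocyte, -0.96 in Lymphoid-primed and -0.41 in Mast, basophil and eosinophil gate cells. H1f0 was lower in the first 3 of these, at -0.96, -1.56 and -0.93.

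H1f5 was at 443 and 442 CPM in Megakaryocyte-erythroid gate cells of the Yoda1 libraries, and at 213 and 467 CPM in those of the Controls. In Stem gate cells H1f5 was at 262 and 271 CPM in the Yoda1 libraries, and at 186 and 238 CPM in the Controls, a difference of 0.84. Among core histones, H2ac6 was at 138 and 131 CPM in Mast, basophil and eosinophil gate cells of the Yoda1 libraries, and at 145 and 159 CPM in those of the Controls. In Stem gate cells H2ac6 was at 61.6 and 15.4 CPM in the Yoda1 libraries, and at 23.1 and 19.6 CPM in the Controls. The difference was 2.53 ± 0.21, with Yoda1 1 high within the Stem gate. H3c4 was at 48.8 and 44.5 CPM in Mast, basophil and eosinophil gate cells of the Yoda1 libraries, and at 72.9 and 55.1 CPM in those of the Controls. In Stem gate cells H3c4 was at 19.5 and 9.38 CPM in the Yoda1 libraries, and at 12.4 and 12.9 CPM in the Controls, a difference of 2.25 ± 0.19.

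The direction in Granulocyte-monocyte gate cells turned with the Mki67 state. Among Mki67-positive cells, 0 of 53 members tested were higher and 21 lower than in Mki67-positive Stem gate cells, against 59% of 12962 genes called and 29.9% called lower, with a median of -0.33. Among double-negative cells, 28 of 41 were higher and 4 lower, against 66.8% called and 33.4% called higher, with a median of 1.13. H2ac8 was at 697 and 406 CPM in Mki67-positive Granulocyte-monocyte gate cells of the Yoda1 libraries, and at 299 and 374 CPM in those of the Controls. In Mki67-positive Stem gate cells it was at 1228 and 784 CPM in the Yoda1 libraries, and at 669 and 688 CPM in the Controls, a difference of -0.60. In double-negative cells the same difference for H2ac8 was 1.48, and for H1f5 it was 2.50, against 0.05 in Mki67-positive cells, which did not pass. Mki67 itself differed in the same directions, at -0.63 among Mki67-positive and 2.23 among double-negative cells, and Granulocyte-monocyte gate cells held more UMIs, with medians of 15056 to 18916 per cell against 5684 to 6859 in the Stem gate. The part of Mki67 and depth in these member differences was not tested. H1f0 kept its direction, at -1.74 in Mki67-positive and -1.61 in double-negative cells.

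In Megakaryocyte-erythroid gate cells the Mki67-positive comparison gave 8 higher and 4 lower members, with a median of 0.04 against 0.68 over all cells of the gates, and a background of 57.7% called. Double-negative cells gave 30 of 41 higher and none lower, against 58.6% called. H1f0 and H1f10 were among the 4 lower in Mki67-positive cells, with H2ac8 and H2bc6. In Lymphoid-primed gate cells 8 members were higher and 2 lower among Mki67-positive cells, against 24.9% called, and 4 were higher and 3 lower among double-negative cells, against 21% called, with H1f0 and H1f10 lower in both. In double-negative Monocyte-dendritic gate cells 23 were higher and 3 lower, against 48% called.

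**Figure D5:**
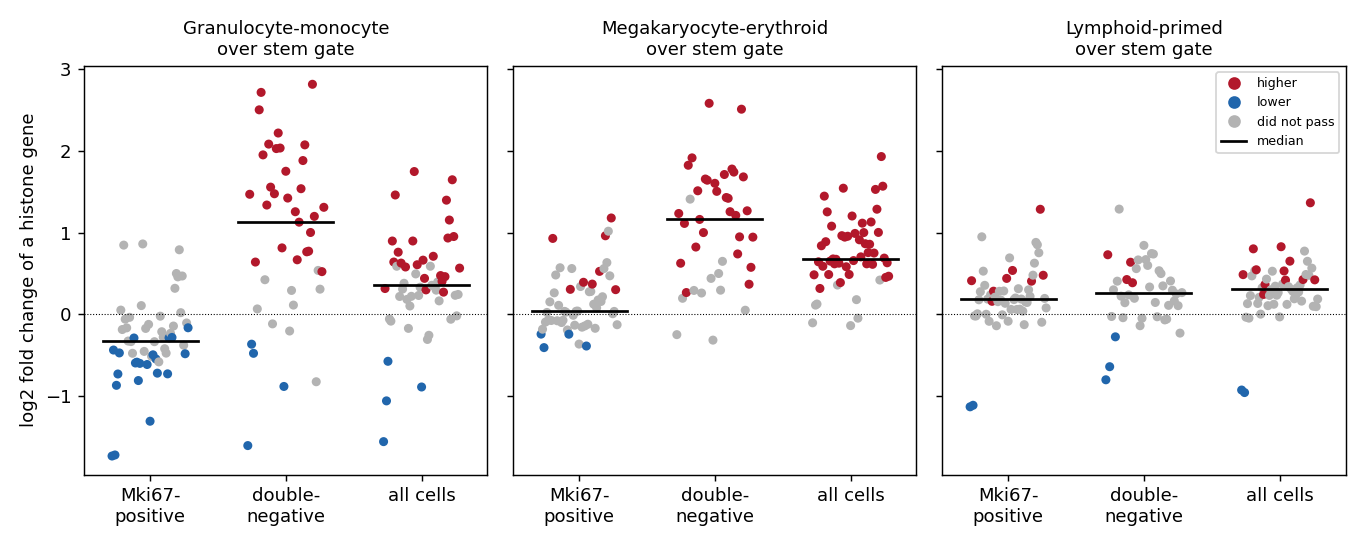
Log2 difference from Stem gate cells for each member tested in Granulocyte-monocyte, Megakaryocyte-erythroid and Lymphoid-primed gate cells, in Mki67-positive, double-negative and all cells, with red for higher, blue for lower, grey for members that did not pass and a line at the median. In the Granulocyte-monocyte panel the medians are -0.33, 1.13 and 0.36.

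Yoda1 was also compared with Control within gates and classes, since the libraries differed in makeup. Cells within some gates still differed. In Monocyte-dendritic gate cells the markers of that gate summed to 1649 and 12743 CPM in Yoda1 1 and Yoda1 2, against 4816 and 6663 CPM in Control 1 and Control 2. Granulocyte-monocyte markers in the same cells summed to 5724 and 1509 CPM in the Yoda1 libraries, against 6049 and 4734 CPM in the Controls. In Mast, basophil and eosinophil gate cells the markers of that gate summed to 6899.6 and 22397 CPM in the Yoda1 libraries, against 9699.9 and 9921 CPM in the Controls. The part of these differences in the comparisons was not tested. Without a replicate block, edgeR called no member and no gene in any of the 6 gates or 4 classes, so the background was 0% in each. With replicate number as a block, 11 members were higher and 1 lower in Granulocyte-monocyte gate cells, among 98 of 14454 genes called. In Megakaryocyte-erythroid gate cells 1 member was higher, among 37 of 14595 genes called. The labels do not say what a replicate number shares. Differences of library 1 from library 2 correlated between the groups, at 0.50 over 18182 genes and 0.48 over the 59 members. Without the block, Granulocyte-monocyte gate cells came closest, with 21 of 57 members at an unadjusted p under 0.05, against 2.33% of all genes. There the estimates were above 0 for 52 members, with a median of 0.60 against -0.02 over all genes, and both Yoda1 libraries lay above both Controls for 26 members, against 8.59% of genes. H2ac4 was at 39.1 and 23.3 CPM in the Yoda1 libraries, against 12.7 and 14.7 CPM in the Controls, a log2 difference of 1.28 ± 0.23 with an edgeR adjusted p of 0.699. H2ac8 was at 548 and 326 CPM in the Yoda1 libraries, against 218 and 254 CPM in the Controls. H3c7 was at 18.9 and 9.89 CPM in the Yoda1 libraries, against 5.26 and 8.13 CPM in the Controls. H1f10 went the other way in Granulocyte-monocyte gate cells, with both Yoda1 libraries below both Controls, at -0.58. Yoda1 2 contributed 256 cells to this gate, against 1874 in Yoda1 1 and 1972 and 1468 in the Controls. Without Yoda1 2, 15 members passed in this gate, all higher in Yoda1 1, against 0.793% of genes called higher.

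Counts of members with both Yoda1 libraries above both Controls were 22 of 54 in Lymphoid-primed gate cells (9.37% of all genes), 12 of 58 in Megakaryocyte-erythroid (11.2%), 8 of 39 in Stem (11.8%), 9 of 46 in Monocyte-dendritic (7.79%) and 11 of 36 in Mast, basophil and eosinophil gate cells (12.5%). Unadjusted p was under 0.05 for 9, 7, 6, 2 and 10 members of those gates in that order. Over all genes the shares were 1.62%, 1.84%, 1.63%, 0.649% and 2.10%. By class the counts were 16 of 58 in cells with both genes (11.2%), 17 of 59 with Mki67 alone (11.3%), 2 of 57 with Pcna alone (9.83%) and 0 of 56 in double-negative cells (9.89%). Unadjusted p was under 0.05 for 6, 5, 0 and 0 of them in that order, against 1.52%, 2.11%, 2.09% and 1.80% of all genes. Members share sequence and libraries, so these counts are not independent. Without Yoda1 2, members passed in every gate and class, all higher in Yoda1 1. By class they were 7 with both genes, 11 with Mki67 alone, 16 with Pcna alone and 2 in double-negative cells, against 0.545%, 0.813%, 0.825% and 0.568% of genes called higher. Besides the Granulocyte-monocyte gate they were 14 in Lymphoid-primed, 6 in Megakaryocyte-erythroid, 8 in Stem, 13 in Monocyte-dendritic and 6 in Mast, basophil and eosinophil gate cells, against 0.841%, 0.414%, 0.95%, 0.616% and 0.451%. Without Yoda1 1, H2ac6 passed with Pcna alone, H1f5 and H3c4 in double-negative cells, and H1f1 in Monocyte-dendritic gate cells, all lower in Yoda1 2, against 2.94%, 2.14% and 0.668% of genes called lower in those fits. The interaction test of whether the Yoda1 difference varied between each gate and the Stem gate, or each class and the double-negative cells, called 0 members in edgeR, with 0 to 5 members at an unadjusted p under 0.05 in each test. Over all genes these tests called 0% of genes, except 0.0128% for Pcna alone. An unadjusted p under 0.05 was found for 212 to 590 of the 13994 or 15627 genes in each test.

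Promoters are shown for 5 H2A and H2B genes that were called higher in both Mki67-positive classes. RefSeq promoter windows, from 250 bases before to 50 after each gene start (GRCm38.p6), were found for 53 of 59 members. The octamer ATTTGCAT, searched on both strands, was in 6 of 12 H2bc and 5 of 15 H2ac windows and in none of the H1f, H3c and H4c windows, against 1.735% of all 32851 windows. CCAAT, on both strands, was in all 15 H2ac, all 12 H2bc and all 8 H3c windows, in 5 of 7 H1f and in 3 of 11 H4c windows, against 37.41% of all windows. The H1 box AAACACA, on both strands, was in 4 of 7 H1f windows, 1 H2ac, 1 H2bc and no H3c or H4c window, against 7.184%, and overlaps between motifs were not counted apart. The octamer is in capitals below, on the strand of the named gene.
H2ac8: atagaggttctATGCAAATaagggactcaa
H2bc8: ttgagtcccttATTTGCATagaacctctat
H2ac4: tgcaggcctttATGCAAATgaggagctcaa
H2bc3: ttgagtctcttATTTGCATaaagcctttga
H2ac6: tgggtgggattATGCAAATgaagtttccag
The octamer lay 128, 59, 129, 90 and 130 bases before the gene start in this order. The H2ac8 and H2bc8 lines are the same site read from the strands of a divergent gene pair, whose windows are chr13:23571171-23571470 (minus strand) and chr13:23571150-23571449 (plus strand). Sharing that site, H2ac8 averaged 380.1 CPM and H2bc8 3.79 CPM over the 4 libraries, and in cells with both Mki67 and Pcna they differed from double-negative cells by 2.05 and 0.72 on the log2 scale. A match of letters is a description and does not show that a factor bound there.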

How the data were processed

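Single-cell RNA-seq of sorted LSK bone marrow was analysed in 4 libraries, 2 Yoda1 and 2 Control. The authors deposited raw UMI counts per gene and cell barcode, made with Cell Ranger 7.1.0 per the file headers. Seurat 4.3.0 and the build GRCm38 (mm10) are named in the submitters' processing notes. The annotation release, the strand setting and the handling of reads that match several genes are not given in the sources used here.

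Of 36805 barcodes, 34320 were kept: those under 500 genes, under 1000 UMIs or over 10% mitochondrial UMIs were dropped. The libraries held 89058521 to 110493533 UMIs. Scrublet did not separate doublets in 3 of 4 libraries, so none were removed; the alternative removed the highest-scoring 465 to 761 barcodes per library. CPM is relative to all UMIs of the kept cells. Cells were thinned to 3000 UMIs to set Mki67 and Pcna classes and per-cell values. A gate marker was on above its mean over kept cells. Counts were summed per library, and per gate or class, and tested with edgeR 4.0.16 (quasi-likelihood, TMM, filterByExpr, Benjamini-Hochberg, adjusted p under 0.05; R 4.3.3). Gate and class fits had library as a block. Standard errors are the log2 fold change over the square root of F. DESeq2 1.42.0 and limma 3.58.1 were alternatives. The fits were tested on simulated data. Stem-loops and A runs were read from GENCODE M21 and promoters from RefSeq. Python 3.11.15, scanpy 1.11.5, scipy 1.17.1 and Biopython 1.88 were used.

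Members, lists and gates were chosen with earlier results of these data known. Values per library were to be given for members with a mean of at least 10 CPM, which were 24, for members called in any fit, and for the genes beside the 50 UMI minimum. All 59 members were called in at least 1 fit, so that clause covered every member. It was not followed in full, and the members under 10 CPM are given by counts and examples. Of each list, up to 3 genes with the smallest p could be named.

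The sums without H2ac24 and the gate comparisons within Mki67-positive or double-negative cells were added after seeing the data.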

Additional observations from a re-analysis of the deposited data

How the results depend on the processing

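Alternatives were RLE normalization, no low-count filter, DESeq2, limma, other cell filters, doublet removal, a replicate block, classes from unthinned UMIs, gates with 1 more marker on, Tirosh phases and each library left out. In all cells, DESeq2 called 5 genes. Yoda1 against Control called 12 members in the Granulocyte-monocyte gate and 1 in the Megakaryocyte-erythroid gate with the replicate block, among 98 and 37 genes called there. The labels do not say what a replicate number shares, so the block is a hint only. Differences of library 1 from library 2 correlated at 0.50 between the groups over 18182 genes. What same-numbered libraries share was not tested. Over double-negative cells, Pcna alone gave 27 of 59 members with no low-count filter, against 3665 of 30337 genes called. With unthinned classes it gave 23 of 57, against 43.6% called. S-phase over G1 cells, a different split of cells, gave 52 of 58 by Tirosh scores, against 59.8% called. Over the Stem gate, 7 members passed in double-negative Lymphoid-primed and 12 in Mki67-positive Megakaryocyte-erythroid gate cells. The Mast, basophil and eosinophil gate, and the Mki67-positive Monocyte-dendritic gate, had under 50 cells in a library and were not run within classes. Estimates without a call changed sign for H3c1 (0.0023 with doublets removed), H2ac6 (-0.13 with the replicate block and -0.13 by limma) and H1f0 (-0.0062 by RLE, -0.010 with no low-count filter, -0.0063 by DESeq2).

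With each library left out, calls of Yoda1 against Control ranged over 0 to 938 genes and 0 to 11 members in all cells. Members called ranged over 0 to 11 with Mki67 alone, 0 to 16 with Pcna alone, 0 to 7 with both, 0 to 2 in double-negative cells, 0 to 15 in Granulocyte-monocyte, 0 to 14 in Lymphoid-primed, 0 to 6 in Mast, basophil and eosinophil, 0 to 6 in Megakaryocyte-erythroid, 0 to 13 in Monocyte-dendritic and 0 to 8 in Stem gate cells. Pcna alone over double-negative cells gave 9 to 21. The summed log2 ratio ranged over -0.05 to 0.64. Lowest and highest whole-sort log2 fold changes were -0.28 and 0.35 for H1f0, -0.11 and 0.50 for H1f1, -0.45 and 0.29 for H1f2, -0.30 and 0.33 for H1f3, -0.13 and 0.74 for H1f4, -0.11 and 0.72 for H1f5, and -0.42 and 0.11 for H1f10. They were -0.44 and 1.34 for H2ac24, -0.85 and 0.58 for H2ac6, -0.19 and 1.05 for H2ac18, -0.066 and 0.87 for H2ac20, -0.18 and 1.08 for H2bc3, -0.54 and 0.16 for H2bc4, and -0.51 and 0.82 for H2bc11. They were -0.46 and 0.31 for H3c1, -0.11 and 0.997 for H3c3, -0.83 and 0.019 for H3c4, -0.38 and 0.77 for H3c6, -0.11 and 1.19 for H4c8, and -0.25 and 0.11 for H4c9. Outside the members they were -0.18 and 0.21 for Mki67, -0.21 and 0.10 for Pcna, -0.91 and 0.072 for Ccne1, -0.42 and 0.034 for Cpsf2, -0.35 and 0.016 for Cpsf3, -0.73 and 0.0082 for E2f8, -0.77 and 0.29 for H2aw, -0.41 and 0.038 for Hira, -0.062 and 0.36 for Hirip3, -0.077 and 0.59 for Macroh2a2, -0.47 and 0.034 for Mcm2, -0.68 and 0.15 for Plk1, and -0.54 and 0.054 for Ube2c. Of 41 named genes, 33 changed sign under at least 1 alternative. The cause was not tested. With 2 libraries a group, Yoda1 effects of the sizes seen could not be told from the spread between libraries.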
